A study of Mus musculus with 8 samples.

Results

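Unstimulated mouse embryonic fibroblasts that lack Ikbke were compared with unstimulated wild-type fibroblasts across all autosomal genes of an Affymetrix array. The comparison used 2 of the 8 arrays of the study, the Tbk1+/+ Ikbke-/- mock array and the Tbk1+/+ Ikbke+/+ mock array, taken by genotype and treatment as labelled. Both cultures came from embryos of a C57BL/6 x 129Ola background, both carried intact Tbk1, and both were harvested 4 h after a mock transfection without DNA. The other arrays held the same genotypes 4 h after transfection with B-DNA, a synthetic poly(dA-dT) DNA, and fibroblasts without Tbk1, with or without Ikbke, after mock or B-DNA transfection. These arrays were all of the same strain background. They are used below only to show whether a difference of the mock arrays was seen again between other Ikbke-/- and Ikbke+/+ arrays. Each combination of genotype and treatment had 1 array, so the comparison of the mock arrays has no replicate error and no test, and having so few arrays limits how precise any value can be. The labels do not say whether the mock and B-DNA arrays of a genotype came from separate embryos or cultures, or whether embryos were pooled. The cultures are called WT (Tbk1+/+ Ikbke+/+), Ikbke-/- (Tbk1+/+ Ikbke-/-), Tbk1-/- (Tbk1-/- Ikbke+/+) and Tbk1-/- Ikbke-/-.

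Ikbke encodes IKKε, a kinase closely related to Tbk1. Both kinases phosphorylate the transcription factors Irf3 and Irf7 downstream of sensors of foreign nucleic acid, which starts the transcription of type I interferon, and interferon in turn drives a large set of antiviral genes through Jak-Stat signalling. Embryonic fibroblast cultures are prepared from minced whole embryos, so they are a mixed mesenchymal population that can hold cartilage, muscle, adipose and blood precursors beside fibroblasts.

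Of 12393 genes named on the array, 11957 were autosomal, and 8166 of these reached the floor of 122 signal units on at least 1 of the 2 mock arrays. Signal is the brightness of a probe set after each array was scaled to a trimmed mean of 500, and lower values were raised to the floor, the 40th percentile of all scaled values, before ratios were taken. Higher and lower in counts below mean a ratio of at least 2-fold whose brighter signal reached 244. On the deposited scale the trimmed means were 237 on the Ikbke-/- mock array and 237 on the WT mock array, so the scaling factors of the compared arrays were nearly the same (2.11 each). Over all 8 arrays they lay between 140 and 255.

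Before the genes, the labels were checked. The probe set of Ikbke itself read 13.3 on the Ikbke-/- mock array and 23.02 on the WT mock array, under the floor on all 8 arrays, so it checks nothing. Tbk1 read 472 in Ikbke-/- mock cells and 501 in WT mock cells (log2 ratio -0.09). The sex-linked genes, which are no members of the comparison, set the genotypes apart. Xist, the RNA of the inactive X chromosome, read 138 and 3002 on the Ikbke-/- and WT mock arrays. The Y-linked Eif2s3y read 287 in Ikbke-/- mock cells and 1.48 in WT mock cells, and Kdm5d and Uty were likewise brighter in Ikbke-/- mock cells. Xist was dim and the Y-linked genes bright on all arrays of Ikbke-/- and Tbk1-/- Ikbke-/- cells, and the reverse on all arrays of WT and Tbk1-/- cells, so the sex of the embryos and the Ikbke genotype cannot be told apart in any autosomal difference given here.

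The fibroblast label was borne out by high signals on both arrays. Vim, the intermediate filament of mesenchymal cells, read 22714 in Ikbke-/- mock cells and 24410 in WT mock cells, and fibronectin (Fn1) read 22348 and 22308 on the Ikbke-/- and WT mock arrays. Of 31 fibroblast and mesenchyme markers on the array, 27 reached 244 in Ikbke-/- mock cells and 25 in WT mock cells. Some genes listed as markers of other cells were bright too, which does not by itself show that those cells were present. Of 20 endothelial markers on the array 4 reached 244 in Ikbke-/- mock cells and 4 in WT mock cells, while 14 were under the floor on each of these arrays. Of 43 macrophage and leukocyte markers 4 reached 244 in Ikbke-/- mock cells and 25 in WT mock cells, with 32 and 9 under the floor.

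Across the autosomes, 213 genes were higher in Ikbke-/- mock cells than in WT mock cells (2.61% of 8166) and 294 were lower (3.6%), 507 in all (6.21%). The balance depended on the scaling: with each array scaled to its median 305 were higher and 221 lower, since this moved the median log2 ratio of all measured genes to 0.08, against -0.05 here. With the floor at the 20th percentile the counts were 375 higher and 706 lower. A 4-fold difference was reached by 36 higher and 47 lower genes. The 5th and 95th percentiles of the log2 ratio were -0.88 and 0.73. For 37 of the higher and 85 of the lower genes, 1 of the signals was under the floor, so those ratios are bounds. A scale of error comes from the B-DNA arrays of the same genotypes. The log2 ratio of a gene between the Ikbke-/- and WT B-DNA arrays differed from that of the mock arrays by a median of 0.25 over 7848 genes. This gives a robust SD of 0.26 for a ratio and includes any real difference in the response to B-DNA. If the mock and B-DNA arrays of a genotype share a culture, which the labels do not say, differences between cultures or embryos are left out of this SD. No chromosome stood apart, with medians between -0.09 and 0.03 over the autosomes. Among the 50 measured genes nearest to Ikbke on chromosome 1, 2 were higher, 3 were lower and the median was -0.07.

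**Figure D1:**
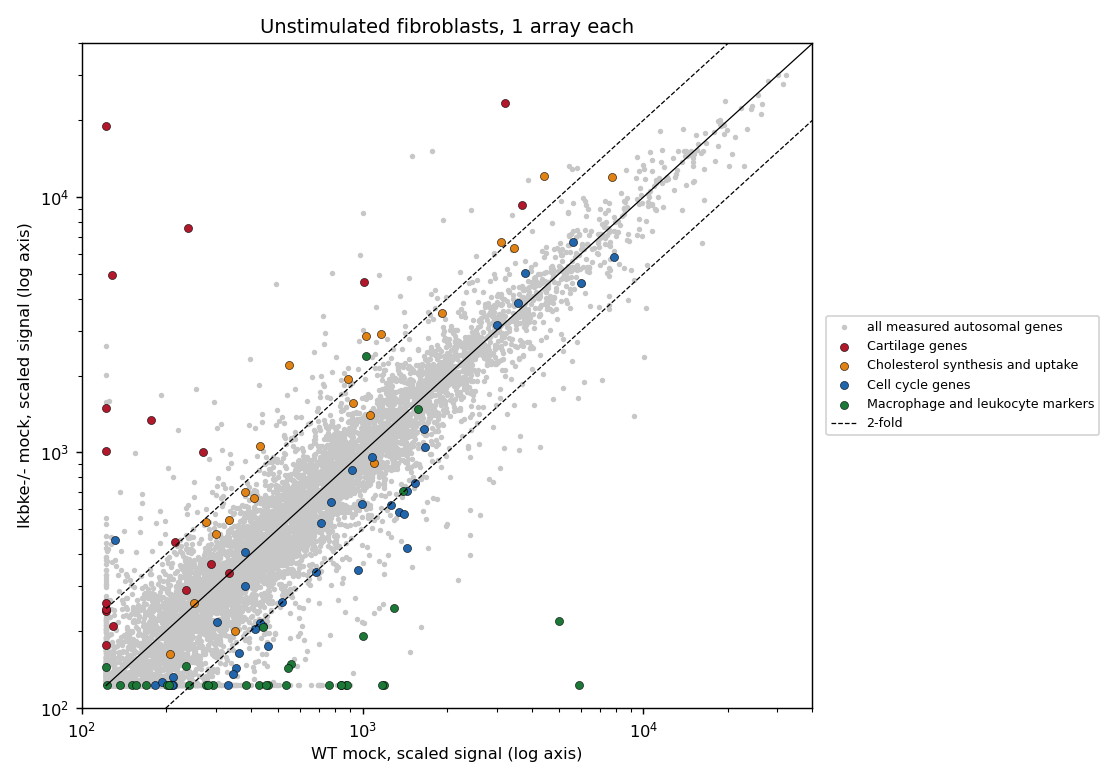
Scaled signal of each measured autosomal gene on the Ikbke-/- mock array (vertical log axis) against the WT mock array (horizontal log axis), with values under the floor of 122 drawn at the floor. Coloured points are cartilage, macrophage and leukocyte, cell cycle and cholesterol synthesis genes, and the lines mark equal signal and 2-fold differences. The cartilage genes that differ lie above the diagonal, and nearly all macrophage genes that differ lie below it.

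Gene groups chosen for this tissue differed widely. Cartilage genes were often higher in Ikbke-/- mock cells (12 of 19 higher, 0 lower), macrophage and leukocyte genes mostly lower (1 of 35 higher, 22 lower), and cell cycle genes often lower (1 of 39 higher, 17 lower). Genes of cholesterol synthesis (7 of 22) and imprinted growth genes (7 of 17) were higher with none lower. Interferon-stimulated genes numbered 0 higher and 3 lower of 36 (8.33% lower, against 3.6% of all genes). The interferon system with Jak-Stat signalling (24 genes), MHC class I presentation (13 genes) and the amino acid and unfolded protein stress response (29 genes) held no gene past 2-fold. Since only 6.21% of all measured genes passed 2-fold, the absence of any in groups of this size says little.

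**Figure D2:**
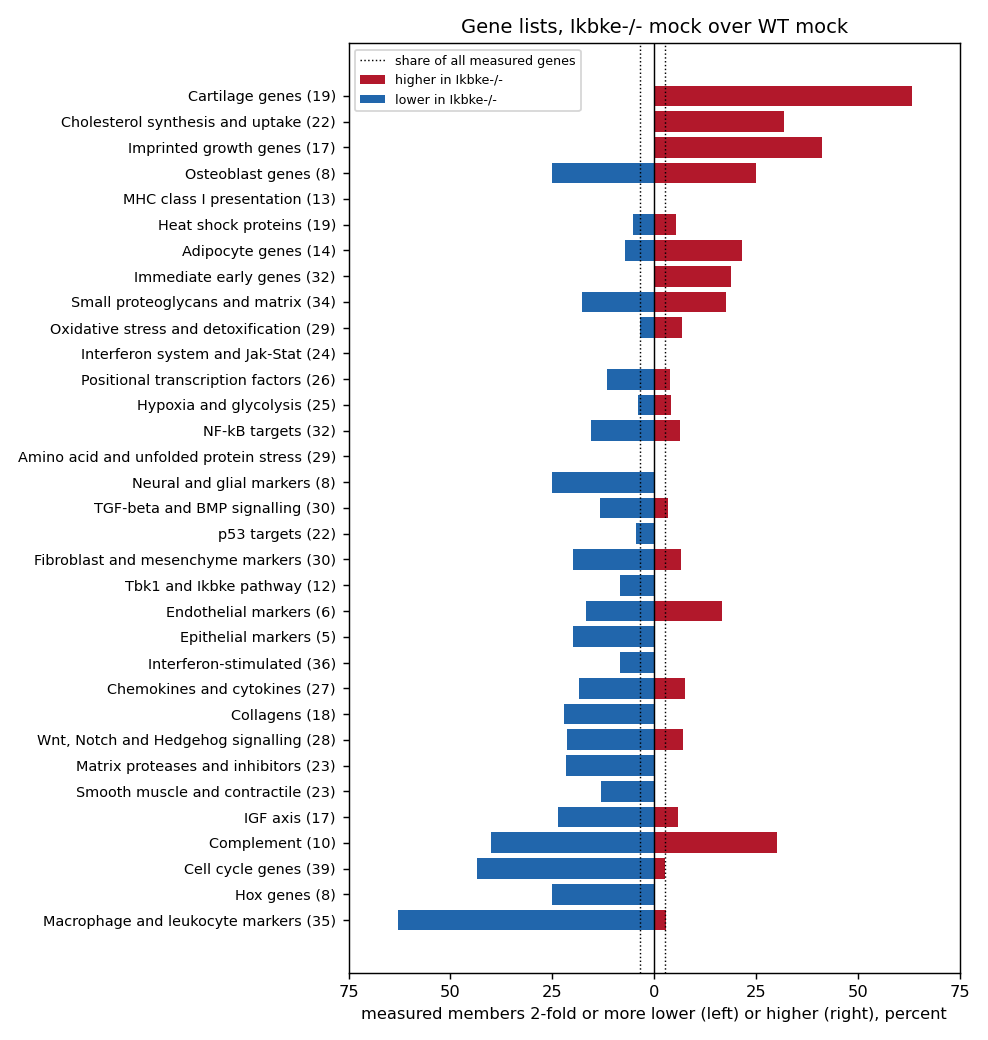
Percent of the measured members of each gene group, with their number in brackets, that were at least 2-fold higher (bars to the right) or lower (bars to the left) in Ikbke-/- mock cells than in WT mock cells, for groups of 5 or more genes. Dotted lines mark the shares of all measured genes (2.61% and 3.6%), and cartilage genes reach farthest to the right and macrophage genes farthest to the left.

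Cartilage genes showed the largest upward ratios. Chondrocytes secrete a matrix of type II, IX and XI collagens, aggrecan and matrilins under the transcription factor Sox9. The median log2 ratio of the 19 measured cartilage genes was 1.32, against -0.05 for all genes. Of the 19, 12 were above the floor on both mock arrays (median 1.61). The others counted as measured only through the Ikbke-/- mock array, so this filter favoured higher ratios. The 23 on the array summed to 76539 signal units in Ikbke-/- mock cells and 10566 in WT mock cells. Chondromodulin (Cnmd), an inhibitor of vessel growth in cartilage, read 18913 in Ikbke-/- mock cells and 44.6 in WT mock cells, at least 155-fold higher. After B-DNA it read 19434 in Ikbke-/- cells and 117 in WT cells. In the absence of Tbk1 the order was the other way, with 4.29 in Tbk1-/- Ikbke-/- mock cells and 2434 in Tbk1-/- mock cells.

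The collagens of cartilage followed. Col2a1, the main cartilage collagen, read 23463 in Ikbke-/- mock cells and 3207 in WT mock cells (log2 ratio 2.87). After B-DNA it read 25950 in Ikbke-/- cells and 3516 in WT cells, and without Tbk1 it read 1111 in Tbk1-/- Ikbke-/- mock cells and 4891 in Tbk1-/- mock cells (-2.14). The mock and B-DNA arrays of WT and Ikbke-/- cells did not overlap. Col9a1, part of the type IX collagen on the surface of those fibrils, read 4957 in Ikbke-/- mock cells and 129 in WT mock cells (5.27). Col9a3 of the same trimer read 1011 in Ikbke-/- mock cells and 39.5 in WT mock cells, at least 8.27-fold higher. Col11a2, in the core of the fibril, read 1333 in Ikbke-/- mock cells and 177 in WT mock cells (2.92).

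The adaptor proteins of the cartilage matrix gave ratios of the same direction. Matn4 read 7593 in Ikbke-/- mock cells and 238 in WT mock cells (5.00), and 9343 in Ikbke-/- and 233 in WT B-DNA cells. Matn1 read 1497 in Ikbke-/- mock cells and 48.4 in WT mock cells, at least 12.3-fold higher. The other called members were picked out after their values were seen. Acan, the large aggregating proteoglycan, read 4651 in Ikbke-/- mock cells and 1010 in WT mock cells (2.20). Sox9, the chondrocyte transcription factor, read 999.9 in Ikbke-/- mock cells and 271 in WT mock cells (1.89). Col11a1 (1.32), Matn3 (1.07, its WT signal under the floor) and Comp (1.05) were nearer to the 2-fold line. Col10a1, the collagen of hypertrophic chondrocytes, which was listed with the bone genes, went the other way, with 23.4 in Ikbke-/- mock cells and 590.3 in WT mock cells, at least 4.83-fold lower. Of the 12 cartilage genes that were higher in the mock comparison, 11 were also at least 2-fold higher between the Ikbke-/- and WT B-DNA arrays, where the group again had 12 higher and 0 lower. Between the Tbk1-/- Ikbke-/- and Tbk1-/- mock arrays the group had 2 higher and 4 lower, and all 4 of the lower genes were among the 12. Of the 23 members on the array, 15 reached 244 on each Ikbke-/- array, 6 on each WT array, 4 on each Tbk1-/- Ikbke-/- array and 5 on each Tbk1-/- array. In bulk RNA, more cells of a type and more RNA per cell cannot be told apart, here or in the groups below.

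**Figure D3:**
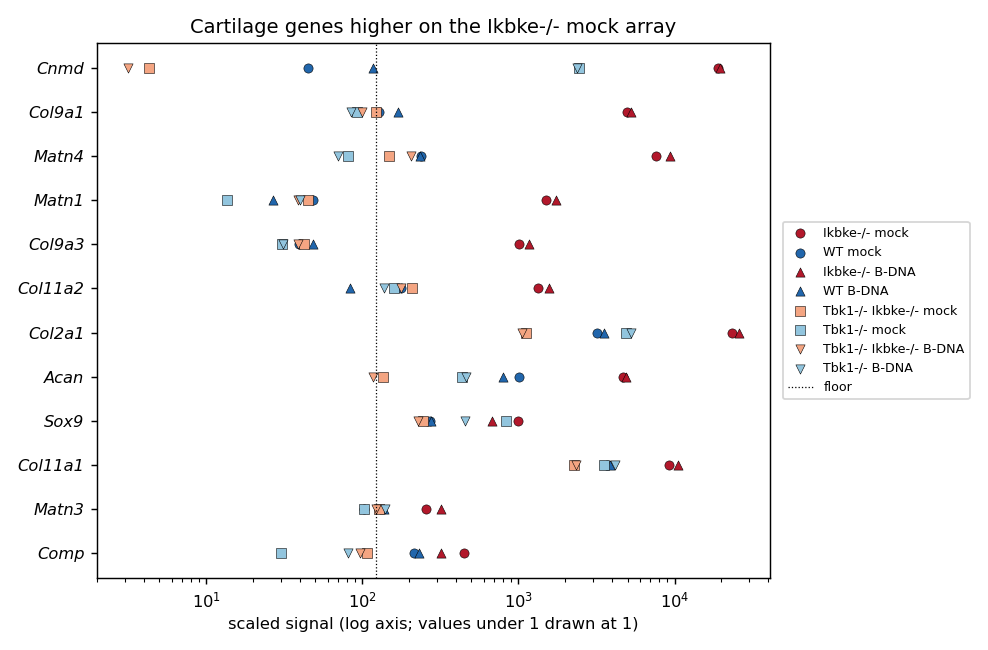
Scaled signal (log axis) of cartilage genes on each of the 8 arrays, 1 point per array. For each of the 12 genes both Ikbke-/- arrays lie to the right of both WT arrays. The 12 are those at least 2-fold higher in Ikbke-/- than in WT mock cells, so the order of these mock arrays was fixed by that choice.

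Other genes with large upward ratios included secreted and matrix proteins. Mia, a secreted protein made by chondrocytes and melanoma cells, read 2005 in Ikbke-/- mock cells and 57.4 in WT mock cells, at least 16.4-fold higher. Pcp4, a calmodulin regulator, read 2611 in Ikbke-/- mock cells and 83.6 in WT mock cells, at least 21.4-fold higher. Osteomodulin (Omd), a small keratan sulphate proteoglycan, read 2319 in Ikbke-/- mock cells and 396 in WT mock cells (2.55). These levels were seen again after B-DNA, with log2 ratios of at least 4.06 for Mia, 3.91 for Pcp4 and 2.85 for Omd between Ikbke-/- and WT cells. Among genes measured above the floor on both arrays, the highest ratios outside the cartilage group, beside Dlk1 (3.11) and Dcn (2.69), described with the imprinted and matrix genes, were those of Efhd1 (3.67), a mitochondrial calcium-binding protein, pleiotrophin (Ptn, 3.27), a heparin-binding growth factor, Ecrg4 (3.21), the protease inhibitor Slpi (3.12), Penk (3.10), the precursor of enkephalin peptides, and apolipoprotein E (Apoe, 2.79). Penk read 15108 in Ikbke-/- mock cells and 1765 in WT mock cells, and Ptn read 14476 in Ikbke-/- mock cells and 1498 in WT mock cells. Ptn was also higher without Tbk1, with 26765 in Tbk1-/- Ikbke-/- mock cells and 37.5 in Tbk1-/- mock cells. Rgs17, a regulator of G protein signalling, read 1582 in Ikbke-/- mock cells and 116 in WT mock cells, at least 12.9-fold higher, but 143 in Tbk1-/- Ikbke-/- mock cells and 1468 in Tbk1-/- mock cells.

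Outside cartilage, the extracellular matrix differed in both directions. Small proteoglycans and other matrix genes had 6 higher and 6 lower of 34, and 11 of these 12 differed the same way between the B-DNA arrays of the genotypes. Decorin (Dcn), which binds collagen fibrils and TGF-beta, read 5049 in Ikbke-/- mock cells and 780 in WT mock cells (2.69), and it was also higher in Tbk1-/- Ikbke-/- mock cells (14062) than in Tbk1-/- mock cells (557). Osteoglycin (Ogn, 1.58), lumican (Lum, 1.72), the basement membrane protein Nid2 (1.59) and the secreted Wnt modulator Sfrp2 (2.08) were higher as well. Among lower matrix genes, elastin (Eln) read 768 in Ikbke-/- mock cells and 2905 in WT mock cells (-1.92), Fbln2 read 2368 in Ikbke-/- and 10031 in WT mock cells (-2.08), and Mfap5 (-2.02), Ltbp2 (-1.56) and Fbln5 (-1.16) were lower too. Fbln2 and Mfap5 were listed with the fibroblast markers. Other microfibril and elastic fibre genes did not reach 2-fold, with 0.54 for Mfap2, 0.50 for Emilin1, -0.16 for Fbn2 and -0.76 for Ltbp1. The microfibril-associated Mfap4 read 41.1 in Ikbke-/- mock cells and 900.2 in WT mock cells, at least 7.37-fold lower.

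The main fibrillar collagens differed by far less than 2-fold. Col1a1 read 23144 in Ikbke-/- mock cells and 26350 in WT mock cells (-0.19), and Col3a1 read 13894 in Ikbke-/- and 18011 in WT mock cells (-0.37). In the collagen group outside cartilage 0 of 18 were higher and 4 were lower, namely Col8a1 (-1.70), Col5a3 (-1.64), Col5a1 (-1.29) and Col7a1 (-1.01). Col5a1, a regulator of fibril diameter, read 6595 in Ikbke-/- mock cells and 16164 in WT mock cells. Among 30 measured fibroblast markers 2 were higher and 6 lower, with a median of -0.19. Pdgfra, the receptor for PDGF-A, was among the higher (1.28), with 2147 in Ikbke-/- and 885 in WT mock cells, whereas Pdgfrb was among the lower (-2.61), with 396 in Ikbke-/- and 2409 in WT mock cells. Another probe set of Pdgfrb had a ratio of -0.96. S100a4, a calcium-binding protein of motile mesenchymal cells, read 3684 in Ikbke-/- mock cells and 10219 in WT mock cells (-1.47), and Thy1 was lower by the smaller ratio of -1.05.

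Genes of macrophages and other leukocytes gave the largest downward ratios. Their 43 genes on the array summed to 7367 signal units in Ikbke-/- mock cells and 30389 in WT mock cells, and 4 of them reached 244 in Ikbke-/- mock cells, against 25 in WT mock cells. The median log2 ratio of the 35 measured was -1.65. Only 10 of the 35 were above the floor on both mock arrays (median -1.50). Nearly all the others counted as measured only through the WT mock array, so this filter favoured lower ratios. Lyz2, the lysozyme of macrophages, read 218 in Ikbke-/- mock cells and 4991 in WT mock cells (-4.52). Lyz1, its near-identical neighbour, whose probes may share transcripts with it, read 41.7 in Ikbke-/- mock cells and 5903 in WT mock cells, at least 48.3-fold lower. The complement C1q chains, made mainly by macrophages, were bright on the WT mock array alone among the mock arrays. C1qa read 12.6 in Ikbke-/- mock cells and 1191 in WT mock cells, at least 9.75-fold lower, and 13.2 and 9.02 in Tbk1-/- Ikbke-/- and Tbk1-/- mock cells. C1qb was at least 9.57-fold and C1qc at least 6.88-fold lower. The lysosomal protease Ctss (at least 7.13-fold lower), the membrane protein Ms4a7 (at least 7.18-fold lower) and the macrophage adhesion receptor Adgre1, which read 91.2 in Ikbke-/- mock cells and 758 in WT mock cells, followed.

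Receptors through which macrophages sense growth factor and bacterial lipid were measured on both arrays. Csf1r, the receptor for the macrophage growth factor, read 245 in Ikbke-/- mock cells and 1295 in WT mock cells (-2.40), although another of its probe sets gave -0.84. Cd14, the co-receptor for lipopolysaccharide, read 191 in Ikbke-/- mock cells and 1002 in WT mock cells (-2.39). The one leukocyte marker that was higher was Emb, an adhesion protein, with 2376 in Ikbke-/- mock cells and 1028 in WT mock cells (1.21). The 43 genes summed to 12245 on the WT B-DNA array and to between 6573 and 8060 on the other 6 arrays, so the WT mock array was the one that stood apart. Between the B-DNA arrays of Ikbke-/- and WT cells, 1 gene was higher and 10 were lower with a median of -0.58, and 11 of the 23 genes that differed between the mock arrays did so in the same direction there. Between Tbk1-/- Ikbke-/- and Tbk1-/- mock cells none was lower. The complement group had 3 higher and 4 lower of 10, the lower ones being the C1q chains and C3ar1, a receptor found on leukocytes, and the higher ones C1ra, C1s1 and Cd59a. Some chemokines and cytokines given below are also made by leukocytes, and the part of the leukocyte signal in their differences was not tested.

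**Figure D4:**
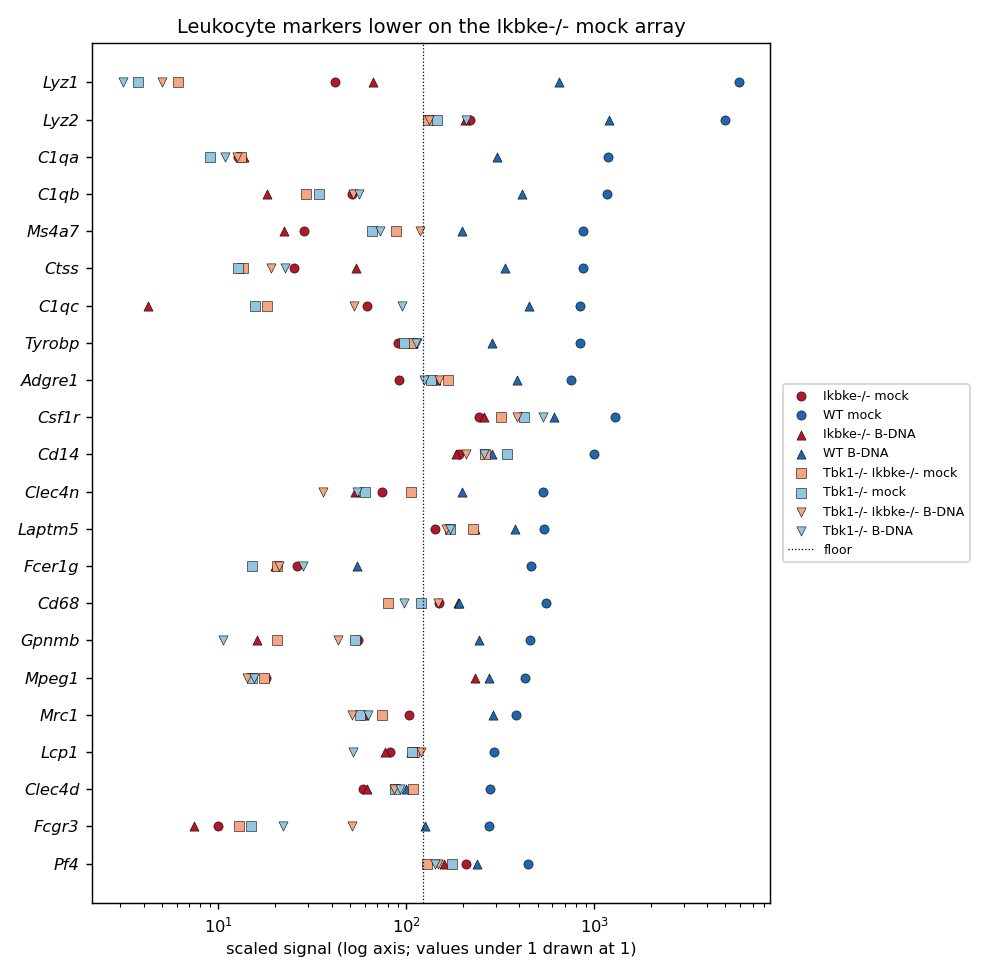
Scaled signal (log axis) of macrophage genes on each of the 8 arrays, 1 point per array. The WT mock array is the highest for each gene drawn, the WT B-DNA array is mostly next, and the other arrays lie lower. Only genes at least 2-fold lower in Ikbke-/- than in WT mock cells are drawn, so the order of these mock arrays was fixed by that choice.

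The pathway in which Ikbke acts held few genes past 2-fold before stimulation, but so did all measured genes (6.21% in either direction). Of 12 measured members of the Tbk1 and Ikbke pathway 0 were higher and 1 was lower (8.33%, against 3.6% of all genes). The lower one was Sting1, the adaptor of the cytosolic DNA sensor, with 172 in Ikbke-/- mock cells and 422 in WT mock cells (-1.30). After B-DNA, Sting1 read 307 in Ikbke-/- cells and 1199 in WT cells. Irf3, the transcription factor that both kinases phosphorylate, read 823 in Ikbke-/- mock cells and 1178 in WT mock cells (-0.52), while another of its probe sets gave 0.47. Irf7, its interferon-induced relative, read 156 in Ikbke-/- mock cells and 216 in WT mock cells (-0.46). Ifnb1, the interferon gene itself, was under the floor on both arrays, with 55.8 in Ikbke-/- mock cells and 99.5 in WT mock cells, so no ratio is given.

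Interferon-stimulated genes had a median log2 ratio of -0.28 over 36 measured members. Rsad2, which encodes the antiviral protein viperin, read 123 in Ikbke-/- mock cells and 400.0 in WT mock cells (-1.70). The guanylate-binding protein Gbp2 read 171 in Ikbke-/- mock cells and 393 in WT mock cells (-1.20), and the RNA sensor gene Ifih1 read 128 in Ikbke-/- mock cells and 273 in WT mock cells (-1.09). These 3 were all that passed 2-fold. Ifit1, which binds viral RNA, read 454 in Ikbke-/- mock cells and 600.0 in WT mock cells (-0.40). Ifit3 (-0.13), Stat2 (0.08) and the chemokines Cxcl10 (-0.17) and Ccl5 (-0.08), whose genes Irf3 and NF-kB can switch on directly, were closer still. After B-DNA, Rsad2 read 23165 in Ikbke-/- cells and 20460 in WT cells (0.18). Gbp2 (0.042) and Ifih1 (0.046) were as near to each other after B-DNA, with 13755 and 13360 for Gbp2 and 14101 and 13655 for Ifih1 in Ikbke-/- and WT cells. Without Tbk1, Gbp2 was again lower in cells that lack Ikbke, with log2 ratios of -1.18 after mock and -1.27 after B-DNA transfection. Rsad2 (0.01) and Ifih1 (0.23) were not lower there after mock transfection. The WT mock array, where the 3 genes were higher than in Ikbke-/- mock cells, was also the array with the highest leukocyte signal, and the part of that signal in these genes was not tested.

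The start regions of these 3 genes are shown because interferon acts on them through a short element. Each window runs from 250 bases before to 50 after the start of the gene, 5′ to 3′ on the strand of the gene, from the RefSeq annotation of GRCm38.p6. Rsad2 lies at chr12:26456403-26456702 on the minus strand, Gbp2 at chr3:142620413-142620712 on the plus strand and Ifih1 at chr2:62646206-62646505 on the minus strand. Capitals mark matches to the interferon-stimulated response element, searched on both strands as GAAA followed, after any 2 bases, by another GAAA.
Rsad2: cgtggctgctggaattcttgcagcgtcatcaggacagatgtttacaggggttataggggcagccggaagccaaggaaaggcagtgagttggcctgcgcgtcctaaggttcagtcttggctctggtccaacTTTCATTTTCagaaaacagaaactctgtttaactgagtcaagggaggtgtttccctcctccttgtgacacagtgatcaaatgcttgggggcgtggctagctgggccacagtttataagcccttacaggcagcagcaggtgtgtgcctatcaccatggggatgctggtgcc
Gbp2: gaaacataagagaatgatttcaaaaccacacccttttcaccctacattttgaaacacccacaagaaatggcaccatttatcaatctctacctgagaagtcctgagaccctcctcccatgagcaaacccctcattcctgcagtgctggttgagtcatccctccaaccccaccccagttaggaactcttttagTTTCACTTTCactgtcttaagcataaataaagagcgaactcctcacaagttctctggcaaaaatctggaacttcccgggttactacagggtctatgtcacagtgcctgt
Ifih1: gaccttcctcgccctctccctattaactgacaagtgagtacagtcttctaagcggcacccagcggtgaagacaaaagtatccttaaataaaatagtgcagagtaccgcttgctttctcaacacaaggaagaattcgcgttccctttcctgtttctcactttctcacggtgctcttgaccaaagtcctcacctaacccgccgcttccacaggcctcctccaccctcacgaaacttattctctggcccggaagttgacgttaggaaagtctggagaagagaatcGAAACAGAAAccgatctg
All 3 windows held 1 match. Of 30 measured interferon-stimulated genes with a window, 16 held a match, and so did 3.49% of 27025 promoters of the annotation. A match is a description of the letters and not a bound site.

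Chemokines and cytokines had 2 higher and 5 lower of 27 measured genes, with a median log2 ratio of -0.30 and 20 of the 27 below 0. NF-kB targets had 2 higher and 5 lower of 32 (median -0.13), and the inhibitor Nfkbia, a direct target that reports NF-kB activity, read 8979 in Ikbke-/- mock cells and 11017 in WT mock cells (-0.30). Other bright probe sets of Nfkbia gave -0.06, -0.08 and -0.33. Lcn2, an iron-scavenging lipocalin, was at least 4.28-fold higher and the adhesion molecule Icam1 was higher by a log2 ratio of 1.55. Il6 read 94.6 in Ikbke-/- mock cells and 345 in WT mock cells, at least 2.82-fold lower, and after B-DNA it read 772 in Ikbke-/- cells and 1861 in WT cells. Ptgs2, which makes prostaglandins, was lower (-1.53), as were the matrix proteases Mmp3 (-1.93) and Mmp13 (at least 2.74-fold). Cxcl12, a chemokine of stromal cells, read 8880 in Ikbke-/- mock cells and 2433 in WT mock cells (1.87). The chemokine Ccl20 read 15.4 in Ikbke-/- mock cells and 811 in WT mock cells, at least 6.64-fold lower, and 19.8 in Ikbke-/- and 1408 in WT B-DNA cells. Lif, a cytokine of the interleukin 6 family, read 789 in Ikbke-/- mock cells and 2813 in WT mock cells (-1.83). Another probe set of Lif gave -0.81.

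Of 39 measured cell cycle genes 17 were lower and 1 higher, with a median log2 ratio of -0.67. Rrm2, the subunit of ribonucleotide reductase that rises in S phase, read 424 in Ikbke-/- mock cells and 1441 in WT mock cells (-1.77). Birc5, or survivin, of the chromosomal passenger complex (-1.48), its partner kinase Aurkb (-1.35), cyclin B2 (Ccnb2, -1.40) and the mitotic activator Cdc20 (-1.29) followed. Ccnb2 read 174 in Ikbke-/- mock cells and 462 in WT mock cells. The spindle checkpoint kinase Bub1b read 85.9 in Ikbke-/- mock cells and 331 in WT mock cells, at least 2.71-fold lower. The members just past 2-fold, picked out after their values were seen, included Top2a (-1.20), Cdk1 (-1.03), Plk1 (-1.02) and the proliferation marker Mki67 (-1.01). Cdkn1c, an inhibitor of cyclin-dependent kinases and an imprinted gene, was the one member higher, with 455 in Ikbke-/- mock cells and 132 in WT mock cells (1.79).

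All 18 of these genes differed by 2-fold in the same direction between the Ikbke-/- and WT B-DNA arrays, where the group had 2 higher and 20 lower and a median of -1.19. Without Tbk1 the counts ran the other way. Between Tbk1-/- Ikbke-/- and Tbk1-/- mock cells 14 were higher and none lower (median 0.89), and Ccnb2 read 932 in Tbk1-/- Ikbke-/- mock cells and 290.0 in Tbk1-/- mock cells. Mki67 was lowest on the Ikbke-/- arrays, with 339 in mock cells and 207 in B-DNA cells, and highest on the Tbk1-/- Ikbke-/- arrays, with 1649 in mock cells and 1535 in B-DNA cells.

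Promoters of 3 mitotic genes are shown for the elements through which such genes are timed in the cycle, the cell cycle homology region, searched as TTTGAA, and the CCAAT box, searched as CCAAT, both on both strands. Capitals mark matches to either, and no matches overlap in these windows. Ccnb2 lies at chr9:70421505-70421804 on the minus strand, Cdc20 at chr4:118437294-118437593 on the minus strand and Plk1 at chr7:122159185-122159484 on the plus strand of GRCm38.p6, in the RefSeq annotation, 5′ to 3′.
Ccnb2: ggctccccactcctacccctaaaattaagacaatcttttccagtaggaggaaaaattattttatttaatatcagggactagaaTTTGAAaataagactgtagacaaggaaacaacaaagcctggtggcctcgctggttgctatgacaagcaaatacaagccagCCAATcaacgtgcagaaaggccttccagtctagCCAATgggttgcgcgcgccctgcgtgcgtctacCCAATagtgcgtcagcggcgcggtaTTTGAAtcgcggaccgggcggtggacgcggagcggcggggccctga
Cdc20: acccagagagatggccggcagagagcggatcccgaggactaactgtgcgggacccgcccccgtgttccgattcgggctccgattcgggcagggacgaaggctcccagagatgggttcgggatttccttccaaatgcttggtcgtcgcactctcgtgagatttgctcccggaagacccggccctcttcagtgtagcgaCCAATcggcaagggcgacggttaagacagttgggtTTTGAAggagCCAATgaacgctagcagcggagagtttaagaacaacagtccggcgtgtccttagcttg
Plk1: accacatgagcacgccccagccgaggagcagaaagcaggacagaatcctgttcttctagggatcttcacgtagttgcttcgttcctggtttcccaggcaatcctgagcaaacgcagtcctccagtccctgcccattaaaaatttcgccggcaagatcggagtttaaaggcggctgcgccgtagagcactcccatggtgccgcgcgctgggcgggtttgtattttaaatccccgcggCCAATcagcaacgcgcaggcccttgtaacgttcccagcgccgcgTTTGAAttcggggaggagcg
The cell cycle homology region matched 2 times in Ccnb2 and 1 time in each of Cdc20 and Plk1, and CCAAT matched 3 times in Ccnb2, 2 times in Cdc20 and 1 time in Plk1. Of 16 lower cell cycle genes with a window, 10 held TTTGAA and 14 held CCAAT. Of 32 measured cell cycle genes with a window, 13 held TTTGAA and 23 held CCAAT, and the shares of all promoters were 18.1% and 37.9%.

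Of the genes of cholesterol synthesis and uptake 7 were higher and none lower. Over 22 measured genes the median log2 ratio was 0.82. Sc5d, a late enzyme of the pathway, read 2196 in Ikbke-/- mock cells and 545 in WT mock cells (2.01), and another of its probe sets gave 0.50. Idi1, which makes the isoprenoid building block dimethylallyl diphosphate, read 2861 in Ikbke-/- mock cells and 1029 in WT mock cells (1.48). Hmgcs1, which feeds the pathway with HMG-CoA, read 12083 in Ikbke-/- mock cells and 4422 in WT mock cells (1.45). Fdft1 (1.13), which makes squalene, and Cyp51 (1.33), Lss (1.29) and Msmo1 (1.09), which act after it in the pathway, completed the 7. Between the B-DNA arrays of Ikbke-/- and WT cells 5 of the 7 were again higher (group median 0.55). Between Tbk1-/- Ikbke-/- and Tbk1-/- mock cells 1 gene was higher and 8 were lower (median -0.54), and 5 of the 7 were among those lower. Idi1 read 491 in Tbk1-/- Ikbke-/- mock cells and 2612 in Tbk1-/- mock cells.

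Sterol-responsive promoters carry a sterol regulatory element beside CCAAT boxes, so the windows of Hmgcs1 and Idi1 are shown. Capitals mark TCACNCCAC, the sterol element as searched, and CCAAT, on both strands and without overlap. Hmgcs1 lies at chr13:119690101-119690400 and Idi1 at chr13:8885356-8885655, both on the plus strand of GRCm38.p6 in the RefSeq annotation, 5′ to 3′.
Hmgcs1: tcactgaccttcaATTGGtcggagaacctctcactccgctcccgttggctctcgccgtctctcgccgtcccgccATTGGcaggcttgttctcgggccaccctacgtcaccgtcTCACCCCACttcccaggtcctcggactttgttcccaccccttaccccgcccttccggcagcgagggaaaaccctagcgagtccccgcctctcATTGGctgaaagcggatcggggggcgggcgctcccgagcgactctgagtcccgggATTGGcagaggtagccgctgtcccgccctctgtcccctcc
Idi1: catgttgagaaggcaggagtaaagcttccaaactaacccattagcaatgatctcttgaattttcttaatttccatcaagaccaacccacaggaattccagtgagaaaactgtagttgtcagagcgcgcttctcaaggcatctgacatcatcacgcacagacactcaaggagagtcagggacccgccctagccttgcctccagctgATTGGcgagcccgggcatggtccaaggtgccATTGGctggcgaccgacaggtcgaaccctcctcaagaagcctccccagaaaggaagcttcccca
Hmgcs1 held 1 sterol element and 4 CCAAT boxes, and Idi1 held 2 CCAAT boxes and no match to the sterol element as spelled. Of the 6 higher cholesterol genes with a window 1 held the sterol element and 6 held CCAAT, against 1.22% and 37.9% of all promoters, and of the 16 measured with a window 1 and 14 did.

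Imprinted growth genes, which are expressed from the allele of 1 parent and regulate fetal growth, had 7 higher and 0 lower of 17 (median 0.50). Dlk1, a Notch-related protein of precursor cells, read 8695 in Ikbke-/- mock cells and 1005 in WT mock cells (3.11). Decorin, given above, and Cdkn1c belong to the group too. Mest read 13254 in Ikbke-/- mock cells and 5442 in WT mock cells (1.28), Impact had a ratio of 1.28, Peg3 read 866 in Ikbke-/- and 331 in WT mock cells (1.39), and the long RNA Meg3 read 12923 in Ikbke-/- and 5553 in WT mock cells (1.22). Another probe set gave 0.29 for Peg3 and 0.22 for Meg3. The growth factor Igf2 did not differ by 2-fold (5745 in Ikbke-/- and 6231 in WT mock cells, -0.12). This group was higher in the absence of Tbk1 as well, with 8 higher and 0 lower between Tbk1-/- Ikbke-/- and Tbk1-/- mock cells (median 0.81), and 4 of the 7 genes were among those 8. Dlk1 read 11670 in Tbk1-/- Ikbke-/- mock cells and 2981 in Tbk1-/- mock cells.

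Immediate early genes, transcription factors switched on within minutes of a stimulus, had 6 higher and 0 lower of 32 with a median of 0.11. Fos read 3563 in Ikbke-/- mock cells and 1406 in WT mock cells (1.34), and Atf3 read 1413 in Ikbke-/- mock cells and 437 in WT mock cells (1.69). Fosb (1.59), Klf2 (1.56), Arc (1.49) and Nr4a2 (1.22) were the others, while Egr1 (-0.15) and Myc (-0.07), named after their values were seen, were near equal. All 6 were at least 2-fold lower in Tbk1-/- Ikbke-/- mock cells than in Tbk1-/- mock cells, where Fos read 608 in Tbk1-/- Ikbke-/- and 4556 in Tbk1-/- cells and 25 genes of the group were lower.

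Groups of signals that pattern mesenchyme had more lower than higher members, as did all measured genes (3.6% lower, 2.61% higher). That balance over all genes turned with each array scaled to its median (305 higher, 221 lower). Wnt, Notch and Hedgehog signalling had 2 higher (7.14%) and 6 lower (21.4%) of 28. Wnt5a, a ligand of limb and body outgrowth, read 215 in Ikbke-/- mock cells and 1013 in WT mock cells (-2.24), and the Notch ligand Jag1 read 105 in Ikbke-/- mock cells and 692 in WT mock cells, at least 5.66-fold lower. TGF-beta and BMP signalling had 1 higher (3.33%) and 4 lower (13.3%) of 30. The activin chains Inhba (-1.90) and Inhbb (-1.66), Tgfb3 (-1.32) and the BMP antagonist Grem1 (-1.20) were lower. Tgfbi, a TGF-beta-induced matrix protein, was higher (1.59), although another of its probe sets gave -0.14. Pdgfb read 316 in Ikbke-/- mock cells and 2193 in WT mock cells (-2.79). In the IGF group 1 was higher (5.88%) and 4 were lower (23.5%) of 17. Among the lower were the binding proteins Igfbp7, with 1386 in Ikbke-/- mock cells and 9292 in WT mock cells (-2.75), and Igfbp6 (-2.20).

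A few transcription factors that record a cell's place in the embryo also differed. The positional group had 1 higher (3.85%, against 2.61% of all genes) and 3 lower (11.5%, against 3.6%) of 26. Meis2 (1.09) was higher and Meox1 (-1.89), Nr2f2 (-1.43) and Tbx3 (-1.20) were lower. The Hox group had 2 lower of 8, Hoxa9 (-1.34) and Hoxc6 (-1.01), with a median of -0.71, but only 4 of the 8 were above the floor on both arrays. Neither Hox difference was seen again at 2-fold between the Ikbke-/- and WT B-DNA arrays (group median -0.37). Between Tbk1-/- Ikbke-/- and Tbk1-/- mock cells the Hox median was 0.59. Other genes lower by the largest ratios were the desmosome protein Pkp1, with 165 in Ikbke-/- mock cells and 1476 in WT mock cells (-3.16), the microtubule regulator Stmn2 (-2.97), the secreted matrix protein Fndc1 (-2.75), the axon guidance ligand Slit2 (-2.35) and the caveolar protein Cavin2 (-2.22). Pkp1 was lower without Tbk1 as well, with 42.2 in Tbk1-/- Ikbke-/- mock cells and 1234 in Tbk1-/- mock cells.

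Whether the differences of the mock arrays were seen again was asked on arrays that the comparison did not use. Of the 213 higher genes, 134 (62.9%) were also at least 2-fold higher between the Ikbke-/- and WT B-DNA arrays, where 266 genes were higher (3.12% of those measured), so they made up 50.4% of that list. Of the 294 lower genes, 169 (57.5%) were lower there too, 50.1% of its 337 (3.95%), where 7.07% of genes differed in either direction. None of the higher and 2 of the lower genes were past 2-fold the other way. The B-DNA arrays differ in treatment from the mock arrays, and the labels do not say whether they share a culture with them.

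Without Tbk1 the comparison gave other genes. Between Tbk1-/- Ikbke-/- and Tbk1-/- mock cells 791 genes were higher (9.25%) and 638 lower (7.46%). Of the 213 genes higher in Ikbke-/- mock cells than in WT mock cells, 44 (20.7%) were higher there as well, 5.56% of its 791, and 50 (23.5%) were lower. Of the 294 lower genes, 38 (12.9%) were lower there, 5.96% of its 638, and 53 (18.03%) were higher. The B-DNA arrays without Tbk1 gave a like picture, with 8.04% of genes higher and 6.74% lower in Tbk1-/- Ikbke-/- than in Tbk1-/- cells. Of the 213 higher genes 41 were higher and 43 lower there, and of the 294 lower genes 46 were lower and 48 higher.

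**Figure D5:**
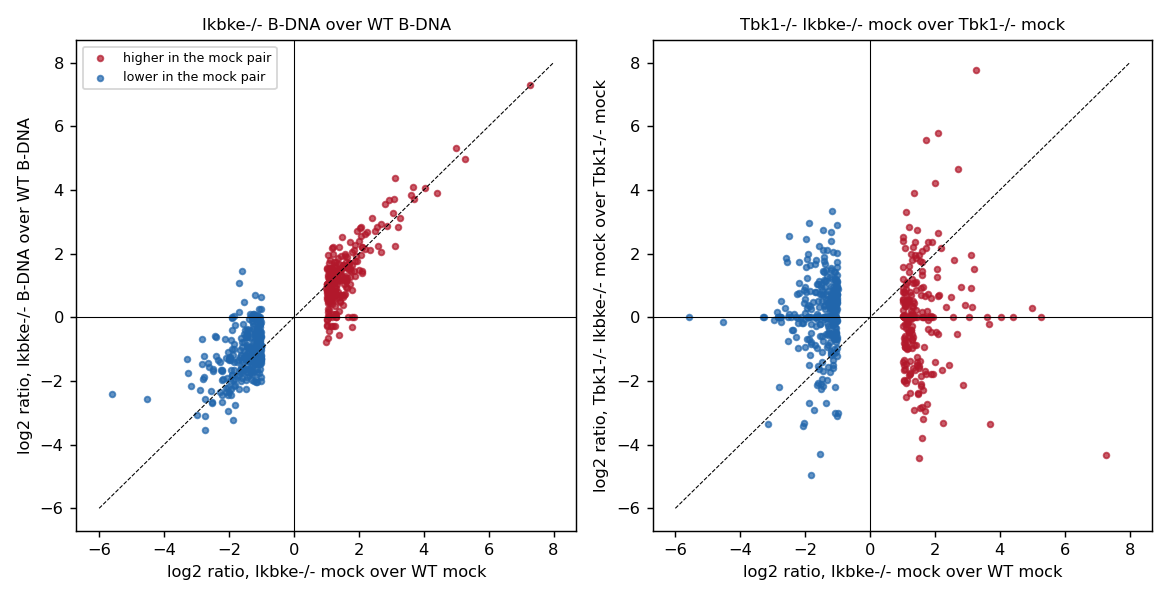
Each point is 1 of the 507 genes that differed between the mock arrays, with the log2 ratio of Ikbke-/- over WT mock cells on the horizontal axes and, on the vertical axes, the ratio of Ikbke-/- over WT B-DNA cells (left) or of Tbk1-/- Ikbke-/- over Tbk1-/- mock cells (right). On the left most points lie near the dashed line of equal ratios, and on the right they scatter to both sides of 0.

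A model across all 4 comparisons that differ in Ikbke, fitted with limma over 9313 genes with each comparison as a block, called 0 genes after Benjamini-Hochberg adjustment at 0.05. At an unadjusted p under 0.05 there were 1135 genes, and the lowest adjusted p from limma was 0.0552. Since no label gives separate cultures, such p-values reflect nothing beyond how these arrays vary, which may be technical. The lowest value was shared by 9 genes, among them the aminopeptidase Enpep, the scavenger receptor Scara5, the lactate dehydrogenase chain Ldhb, Ltbp2, Col5a3 and S100a4. By size alone, 52 genes (0.558% of 9313) differed by at least 2-fold in the same direction in all 4 comparisons, 29 higher and 23 lower. Their adjusted p from limma lay between 0.0552 and 0.25. S100a4 was 1 of these, with 3684 and 2084 in Ikbke-/- mock and B-DNA cells and 10219 and 8127 in WT mock and B-DNA cells. Without Tbk1, S100a4 read 2712 and 2890 in Tbk1-/- Ikbke-/- mock and B-DNA cells and 10305 and 9144 in Tbk1-/- mock and B-DNA cells. Since S100a4 was taken from genes picked for a 2-fold difference in all 4 comparisons, this separation was largely fixed by that choice. Enpep was taken from the same picked genes, so its separation was largely fixed by that choice too. It read 555 and 542 in Ikbke-/- mock and B-DNA cells and 60.4 and 48.3 in WT mock and B-DNA cells. The Tbk1-/- Ikbke-/- mock and B-DNA arrays read 557 and 821 for Enpep, and the Tbk1-/- mock and B-DNA arrays 96.1 and 79.5. The signals of Enpep on all Ikbke+/+ arrays were under the floor.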

How the data were processed

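Total RNA of mouse embryonic fibroblasts was measured on 8 one-colour Affymetrix arrays. The authors used Microarray Suite version 5.0 (MAS5), per the labels and the design text, and deposited linear, not logarithmic, signal intensity values. GeneSpring is also named there, but neither its use nor a scaling target is stated in those texts. The array type named in the design text is not that of the probe set names, so gene names came from annotation that fits these names.

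Of 22690 probe sets 64 controls were left out. Of the 22626 used, 20380 had 1 gene symbol, 691 several and 1555 none, and 20351 of the symbols were found through gene numbers in the GRCm38.p6 RefSeq table. A gene was represented by its brightest probe set on average. Each array was scaled to a 2% trimmed mean of 500, values under the floor (the 40th percentile, 122) were set to it, and log2 ratios were taken. For a ratio with 1 value under the floor the text gives a bound. Where another bright probe set of a gene named disagreed, the text says so for the genes described in full.

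Named were the 12 highest and 12 lowest ratios measured above the floor on both arrays, the 6 brightest in each direction with 1 signal under the floor, up to 6 genes past 2-fold per list, genes past the threshold of the fit over all comparisons, and a set always given, with Tbk1, Ikbke and interferon genes. Other genes were named after their values were seen, which includes Vim, Fn1, Igf2, Col1a1 and Col3a1. The comparison, its 35 gene lists and the tests were chosen with earlier results of these data known, so no list is independent evidence.

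The fit used limma 3.58.1 in R 4.3.3 on log2 signals of the 9313 genes that reached the floor on any array, with a block for each of the 4 comparisons and Benjamini-Hochberg adjustment, and it was tested on simulated data. Other work was done in Python 3.11.15 with pandas 2.3.3. Alternatives changed the floor, the scaling, the offset and the choice of probe set, and replaced the mock arrays by the B-DNA arrays of the same genotypes.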

Additional observations from a re-analysis of the deposited data

Results flagged for a closer look

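The difference between Ikbke-/- and Ikbke+/+ cells had the opposite direction, at least 2-fold, with and without Tbk1, after mock as well as after B-DNA transfection, for 26 of the genes named or past 2-fold in a list. Among all genes such reversals were about as frequent as repeats. Between the Tbk1-/- Ikbke-/- and Tbk1-/- mock arrays, 50 of the 213 higher genes were lower and 44 higher. Of the 294 lower genes, 53 were higher there and 38 lower, and 16.7% of all measured genes differed by 2-fold in either direction. The difference between the comparisons was not tested, since each rests on 1 array per group. The values given here are log2 ratios of Tbk1-/- Ikbke-/- over Tbk1-/- mock cells.

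Genes higher in Ikbke-/- than in WT mock cells were lower in these cells. Among cartilage genes, Cnmd had -4.32, Col2a1 -2.14, Sox9 -1.78 and Acan -1.67. The immediate early genes Arc (-4.42), Fosb (-3.79), Fos (-2.91) and Klf2 (-2.16) did the same. So did the cholesterol genes Idi1 (-2.41), Msmo1 (-2.05), Cyp51 (-1.60) and Sc5d (-1.41), as well as Rgs17 (-3.36) and Ndrg1 (-1.97), a gene induced by low oxygen.

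Genes lower in Ikbke-/- than in WT mock cells were higher in these cells. They were the cell cycle genes Bub1b (2.13), Cenpa (2.06), Mki67 (2.01), Ccnb2 (1.68), Aurkb (1.49), Cdk1 (1.15) and Plk1 (1.10), lipoprotein lipase (Lpl, 2.47), elastin (Eln, 1.98), the smooth muscle actin Actg2 (1.84), the activin chain Inhbb (1.80) and the glutathione transferase Gstm2 (1.42).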

How the results depend on the processing

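With 1 array per group, a gene's ratio between the mock arrays has no error of its own, and the dimmest genes are limited by the floor. Counts of genes differing 2-fold moved most with the floor, and scaling to the median turned the balance, with 305 higher and 221 lower. With the floor at the 20th percentile 375 genes were higher and 706 lower, and at the 60th percentile 141 were lower. The cartilage median was 1.95 with the floor at the 20th percentile and 1.71 with no floor and log2(signal + 50). The macrophage median was -2.27 at the 20th and -0.59 at the 60th percentile, and -1.26 with the mean of all probe sets. At the 60th percentile the cell cycle median was -0.34 and that of interferon-stimulated genes 0. With the B-DNA arrays of the same genotypes, an alternative chosen after seeing the data, the medians were -0.58 for macrophage, -1.19 for cell cycle, 0.55 for cholesterol and 0.31 for interferon-stimulated genes. Of 144 genes named, 5 had the opposite sign there, Cxcl16 (0.28), Gbp2 (0.042), Ifih1 (0.046), Pmaip1 (0.65) and Rsad2 (0.18). Of these, Gbp2, Ifih1 and Rsad2 lay within the spread of 0.26 of no difference, and Cxcl16 just past it. Another 89 of the genes named moved by more than that spread. Such moves were common among all genes, since the median move over 7848 genes was 0.25. The spread was itself taken from these arrays, and most named genes were picked for large mock ratios, so the 89 say little about the named genes. Without further scaling, scaled to the median or quantile normalized, all 144 stayed within that spread. The limma fit over the 4 comparisons, 0 higher and 0 lower, gave 3 higher and 1 lower with median scaling, 0 higher and 1 lower with no filter on low genes, 15 and 12 over genes that exceed the floor on every array, and 18 and 14 with additive terms for Tbk1 genotype and treatment in place of the block. Leaving out each comparison in turn gave 0 to 0 in either direction. The cause of these changes was not tested, except that fewer genes are tested above a higher floor. No paired analysis was possible because each group of the mock comparison has 1 array. The labels give no replicate numbers.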

Other observations

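Other lineages of the mesenchyme differed in single genes. Of 14 measured adipocyte genes 3 were higher and 1 lower, with Fabp4, a fatty acid carrier, at 555 in Ikbke-/- mock cells and 161 in WT mock cells (log2 ratio 1.78) and lipoprotein lipase (Lpl) at 178 in Ikbke-/- mock cells and 699 in WT mock cells (-1.97). Smooth muscle and contractile genes had 0 higher and 3 lower of 23. Their gamma actin Actg2 read 515 in Ikbke-/- mock cells and 1981 in WT mock cells (-1.94), while Acta2, named after its values were seen, read 18437 in Ikbke-/- mock cells and 23304 in WT mock cells (-0.34). Among matrix proteases and inhibitors 5 of 23 were lower and none higher, including the serine protease Htra1 (-1.84), the plasminogen activator Plat (-1.61) and the aggrecanase Adamts4 (-1.55).

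Genes of oxidative stress and detoxification had 2 higher and 1 lower of 29, with the secreted peroxidase Gpx3 at 632 in Ikbke-/- mock cells and 164 in WT mock cells (1.94), against 6.21% of all measured genes past 2-fold in either direction. Hypoxia and glycolysis genes had 1 higher, Ndrg1 (1.14), and 1 lower, Pkm (-1.04), of 25. Heat shock proteins had 1 higher, Cryab (1.04), and 1 lower, Hspb8 (-1.03), of 19, and p53 targets 1 lower of 22, the death gene Pmaip1 (-1.02). Another bright probe set of Cryab gave 0.30, and other probe sets of Hspb8 gave -1.11 and -0.38.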
